A study of Homo sapiens with 6 samples.

Results

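The 35 genes described here encode subunits of the proteasome, and their introns were followed in 6 RNA libraries of K562 cells. A member intron was any listed intron that lay inside one of the genes on its strand and had a mean of 20 or more reads a library, boundary and spliced reads together. This gave 382 of the 241593 introns listed. All 382 introns that lay in the genes passed this minimum, with 5 to 46 introns a gene. By role, 7 genes with 66 introns encode the alpha ring of the core particle, 7 genes with 39 introns its beta ring, 6 genes with 63 introns the ATPases of the regulatory particle, 11 genes with 133 introns its other subunits and 4 genes with 81 introns other activators.

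The proteasome is the barrel-shaped protease that degrades proteins tagged with ubiquitin. Its core particle stacks alpha rings, which gate the entrance, on beta rings, of which PSMB5, PSMB6 and PSMB7 carry the catalytic sites. The regulatory particle caps the barrel, binds tagged proteins and unfolds them with a ring of ATPases (PSMC genes), while PSMD subunits recognise ubiquitin and remove it. PSME1 and PSME2 form an alternative cap induced by interferon gamma, and PSME3 and PSME4 encode further caps.

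K562 is an established human chronic myeloid leukaemia line with erythroid features. The cells were transduced with a control shRNA (Con_sh) or with 1 of 2 shRNAs against ZRSR2, called sh1 and sh2 here, and each of these 3 groups held 2 libraries of polyA-selected RNA. ZRSR2 is a splicing factor of the minor spliceosome and takes part in recognising the 3′ splice site of U12-type introns. The labels do not say whether the libraries came from separate cultures, so p-values measure only the spread between these samples, which may be technical. For each intron the tables give reads across either exon-intron boundary and spliced reads, and retention is the boundary reads as a percentage of their sum with 2 times the spliced reads.

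Library totals ranged from 82986327 to 101120454 spliced reads and from 4387311 to 5199693 boundary reads. The summed spliced reads of ZRSR2 stood at 27.8 and 23.4 CPM (reads scaled to library size) with Con_sh, 10.6 and 10.7 with sh1, and 10.3 and 12.8 with sh2. Over both shRNAs its log2 fold change was -1.21 (SE 0.174, edgeR adjusted p = 0.57, DESeq2 adjusted p = 1.63e-06). The 10 erythroid markers summed to 5256 and 7795 CPM with Con_sh, 14417 and 6962 with sh1, and 25303 and 10800 with sh2, so replicate 1 was the higher library in either knockdown. BCR and ABL1, which are fused in this line, summed to 294 to 382 CPM. Lymphoid markers summed to 107 to 214 CPM, mostly PTPRC, with CD3E at 1.04 to 9.85 CPM, and stromal ones to 5.59 to 21.4 CPM. Epithelial markers summed to 119 to 166 CPM, mostly EPCAM (84.8 to 124 CPM) and KRT19 (33.9 to 54.3 CPM), with CDH1 at 0 to 0.291 CPM. Whether the erythroid markers have a part in the results below was not tested.

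Two-sided tests of boundary against spliced reads called 4 proteasome introns more retained over both shRNAs, and none less. They lay in PSMA1, an alpha ring subunit, and in PSMC4, an ATPase of the regulatory particle, with 2 introns in each gene. The 4 are 1.05% of the 382 introns. Over all 134078 tested introns, edgeR's quasi-likelihood test with Benjamini-Hochberg adjustment called 0.33% more retained and 0.0209% less retained. The 2 introns of PSMA1 overlap and share the reads of their 3′ boundary, so their calls are not independent. Proteasome introns were also read more deeply, with a median of 2253 reads a library against 245.5. Whether depth has a part in the share was not tested. At an unadjusted p under 0.05 the test counted 24 proteasome introns, or 6.28%, beside 4.44% of all tested introns. No intron of the beta ring, of the other regulatory subunits or of the activators was called. Against the control, sh1 alone gave 1 called proteasome intron, beside 0.292% of all introns called more retained and 0.0104% less, and sh2 alone gave 4, beside 0.266% and 0.0201%. The titles number the libraries Exp1 and Exp2 in each group, and with that number as a replicate block sh1 gave 4 calls and sh2 gave 5. All 4 calls over both shRNAs were lost when the smaller boundary count was doubled in place of the sum of both (edgeR adjusted p = 0.245 to 1). Their log2 differences were then 1.45 to 2.37, beside 1.46 to 1.95 with the sum. Those in PSMC4 were also lost when only introns with a mean covered fraction of at least 0.95 were tested (0.116 and 0.241). For either shRNA 21 proteasome introns, or 5.50%, had an unadjusted p under 0.05, beside 4.09% of all introns for sh1 and 4.5% for sh2.

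The called introns of PSMA1 overlap. Both end at the same 3′ boundary on the minus strand of chromosome 11, and they differ in their 5′ boundary. The longer one spans 690 nt (chr11:14513700-14514389, listed intron 7 of 11, counted from the 5′ end), and the shorter one 117 nt (chr11:14513700-14513816, listed intron 8), with their 5′ ends 573 nt apart. Positions are on GRCh38 and count from 1.

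Retention of the 690-nt PSMA1 intron was 11.9% and 9.81% with Con_sh, 41.9% and 24.5% with sh1, and 37.6% and 25.4% with sh2. All 4 knockdown libraries stood above both controls, and replicate 1 was the higher library in every group. Boundary reads numbered 363 and 375 with Con_sh, 1407 and 921 with sh1, and 1408 and 903 with sh2. Spliced reads numbered 1339 and 1724, 976 and 1418, and 1166 and 1324 in the same order. The boundary reads thus separated the knockdown libraries from the control. Spliced counts are not scaled to library size, so their order between groups is not read here. Spliced reads over all introns numbered 86235725 and 101120454 with Con_sh, 82986327 and 100088332 with sh1, and 86435477 and 87795039 with sh2. By counting error alone, the 95% Wilson interval was 10.8% to 13.2% for Con_sh replicate 1 and 39.9% to 43.9% for sh1 replicate 1. The gap between replicates was wider than the interval with sh1 and slightly narrower with Con_sh. The means were 10.9% ± 1.5 with Con_sh, 33.2% ± 12.3 with sh1, and 31.5% ± 8.64 with sh2 (SD, n = 2 each). The log2 difference of boundary against spliced reads was 1.95 (SE 0.339, edgeR adjusted p = 6.56e-06) over both shRNAs, 1.99 (adjusted p = 2.09e-04) for sh1 and 1.90 (adjusted p = 6.93e-04) for sh2. Over both shRNAs the call was kept when any 1 of the 6 libraries was left out, with adjusted p up to 0.0361. The sh1 call was lost without Con_sh replicate 2 (adjusted p = 0.0821) or sh1 replicate 1 (0.831), and the sh2 call without Con_sh replicate 2 (0.153) or sh2 replicate 1 (0.637).

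The reads of the 690-nt intron were unevenly placed. Its 5′ boundary held 302 and 332 reads with Con_sh, 1298 and 800 with sh1, and 1098 and 707 with sh2. The 3′ boundary, which the shorter intron shares, held 61 and 43, 109 and 121, and 310 and 196. The 5′ boundary thus held 3.54 to 11.9 times as many reads as the 3′ one. A read over the upstream 5′ boundary can come from RNA that keeps the whole intron or from RNA spliced at the downstream 5′ end. RNA that keeps the whole intron also crosses the 3′ boundary, where reads were fewer in every library. The retention given above thus counts mostly reads at the 5′ boundary. How much of it is RNA that keeps the whole intron was not tested. Tested alone, the 5′ boundary gave a log2 difference of 1.91 (edgeR adjusted p = 0.00425) and the 3′ boundary 2.03 (adjusted p = 7.21e-04) over both shRNAs.

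Retention of the 117-nt PSMA1 intron was 1.96% and 1.01% with Con_sh, 3.84% and 3.26% with sh1, and 9.84% and 5.99% with sh2. The groups did not overlap, and both sh2 libraries stood above both sh1 libraries. Here the boundaries were evenly filled, with 44 and 31, 93 and 90, and 278 and 176 reads at the 5′ end in the same order, and the means were 1.49% ± 0.670, 3.55% ± 0.416 and 7.92% ± 2.72 (SD, n = 2 each). The log2 difference was 1.94 (SE 0.343, edgeR adjusted p = 1.09e-05) over both shRNAs and 2.53 (adjusted p = 2.49e-07) for sh2. For sh1 it was 1.34 and missed the threshold (adjusted p = 0.158), which it passed with the replicate block (1.35, edgeR adjusted p = 0.00247). The difference between the shRNAs themselves was -1.19 for sh1 against sh2 (unadjusted p = 0.00178, edgeR adjusted p = 0.822, and 0.0387 with the block). The call over both shRNAs was lost without Con_sh replicate 2, at 1.47 (adjusted p = 0.288).

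For the 117-nt intron, spliced reads were taken to include those of the 690-nt one, whose gap spans it. This counting rule was assumed and not tested. The longer intron's spliced reads came to 51.1% and 47.8% of the shorter one's with Con_sh, 38.6% and 45.2% with sh1, and 43.3% and 45.4% with sh2. Every knockdown library lay below both controls, with means of 49.4% ± 2.33, 41.9% ± 4.66 and 44.3% ± 1.47 (SD, n = 2 each). Less the longer intron's spliced reads, the shorter one's numbered 1283 and 1885 with Con_sh, 1550 and 1717 with sh1, and 1527 and 1594 with sh2. These numbers are not scaled to library size and were not tested. The share was chosen after its values had been seen and is given with no test.

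The other 9 introns of PSMA1 had log2 differences of -0.51 to 0.93 over both shRNAs, and the lowest edgeR adjusted p among them was 0.718. The highest of these was a 863-nt intron that begins at the nearer of the gene's start sites, with 1.22% and 1.62% retention with Con_sh, 3.51% and 2.40% with sh1, and 3.19% and 1.79% with sh2. It turned to -0.47 when only its 3′ boundary was counted, the reads lying nearly all at the 5′ one. This 863-nt intron and a 91924-nt one share their 3′ end. With the spliced reads of both added, 96.4% to 98.1% belonged to the 863-nt one.

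In PSMC4, on the plus strand of chromosome 19, the called introns were the last 2 of the 10 listed, on either side of a 56-nt exon. Intron 9, of 207 nt (chr19:39980455-39980661), had a retention of 2.24% and 1.80% with Con_sh, 6.86% and 3.38% with sh1, and 8.19% and 4.21% with sh2. Its boundary reads numbered 97 and 95, 330 and 186, and 329 and 219, split about evenly between the boundaries. All knockdown libraries stood above both controls, and the sh1 and sh2 libraries overlapped each other. The means were 2.02% ± 0.315, 5.12% ± 2.46 and 6.20% ± 2.81 (SD, n = 2 each), and the log2 difference was 1.46 (SE 0.346, edgeR adjusted p = 0.00827) over both shRNAs, 1.61 (0.0197) for sh2 and 1.31 (0.225) for sh1.

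Intron 10 of PSMC4, of 474 nt (chr19:39980718-39981191), was retained at 0.907% and 0.478% with Con_sh, 2.48% and 1.29% with sh1, and 4.33% and 2.16% with sh2. Boundary reads numbered 40 and 27, 123 and 74, and 178 and 109, beside 1968 to 2838 spliced reads. The groups again did not overlap the control, and the means were 0.693% ± 0.303, 1.88% ± 0.845 and 3.25% ± 1.53 (SD, n = 2 each). The log2 difference was 1.84 (SE 0.375, edgeR adjusted p = 4.23e-04) over both shRNAs, 2.24 (1.09e-04) for sh2 and 1.45 (0.179) for sh1. With the replicate block both introns were called for sh1 as well (edgeR adjusted p = 0.00443 for intron 9 and 0.00715 for intron 10). For sh1 against sh2 the differences were -0.30 for intron 9 and -0.79 for intron 10 (edgeR adjusted p = 1 for either).

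The PSMC4 calls rested on single libraries more than the call of the 690-nt PSMA1 intron did. Over both shRNAs, intron 9 lost its call without Con_sh replicate 1 (edgeR adjusted p = 0.127), Con_sh replicate 2 (0.632), sh1 replicate 1 (0.337) or sh2 replicate 1 (0.293). Intron 10 lost it without Con_sh replicate 2 (0.613). For sh2 alone, intron 10 lost its call without Con_sh replicate 2 (0.254) or sh2 replicate 1 (0.370), and intron 9 also without Con_sh replicate 1 (0.145), Con_sh replicate 2 (0.671) or sh2 replicate 1 (1). For sh1 alone both were called without sh1 replicate 2 (0.0361 and 0.0471). The remaining 8 introns of PSMC4 had log2 differences of -0.43 to 0.39 and adjusted p of 1. Among them is intron 8, of 139 nt, retained at 6.53% and 5.06% in the control and at 5.21% to 9.20% in the knockdowns.

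**Figure D1:**
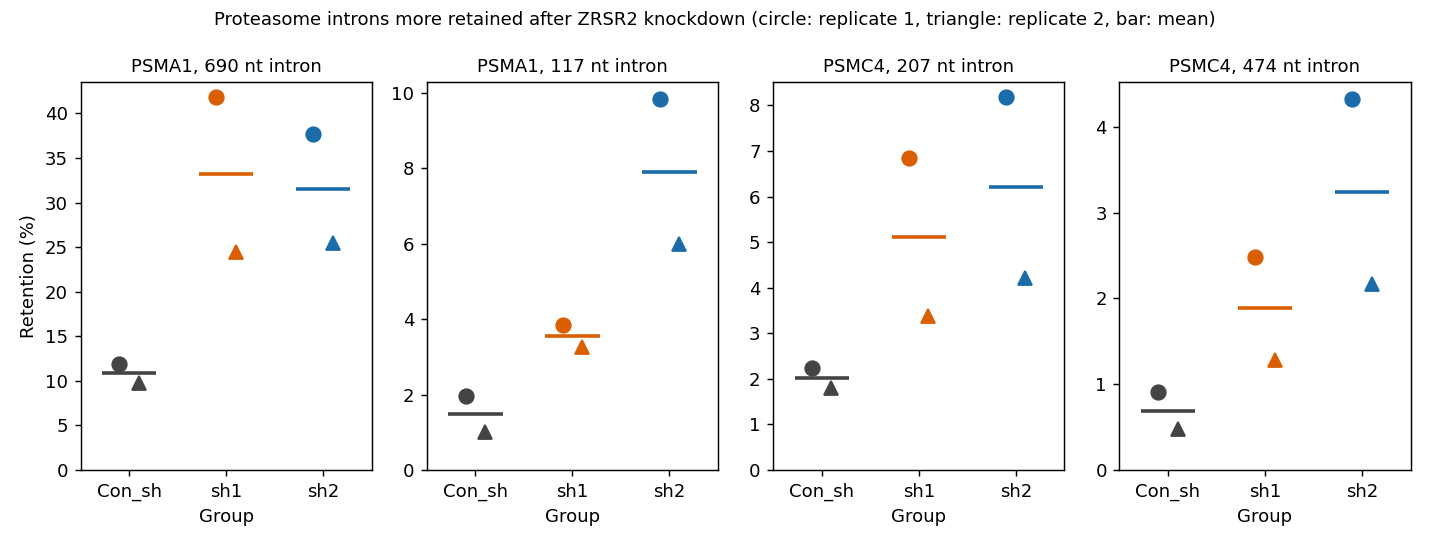
Retention in percent (vertical axis, starting at 0, scaled separately for each intron) of the 4 called introns in the 6 libraries by group, with circles for replicate 1, triangles for replicate 2 and bars for group means. Every knockdown library lies above both control libraries, from 24.5% to 41.9% against 9.81% and 11.9% for the 690-nt PSMA1 intron. Most boundary reads of that intron lie at its 5′ boundary, where RNA spliced at the downstream 5′ end is counted too.

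**Figure D2:**
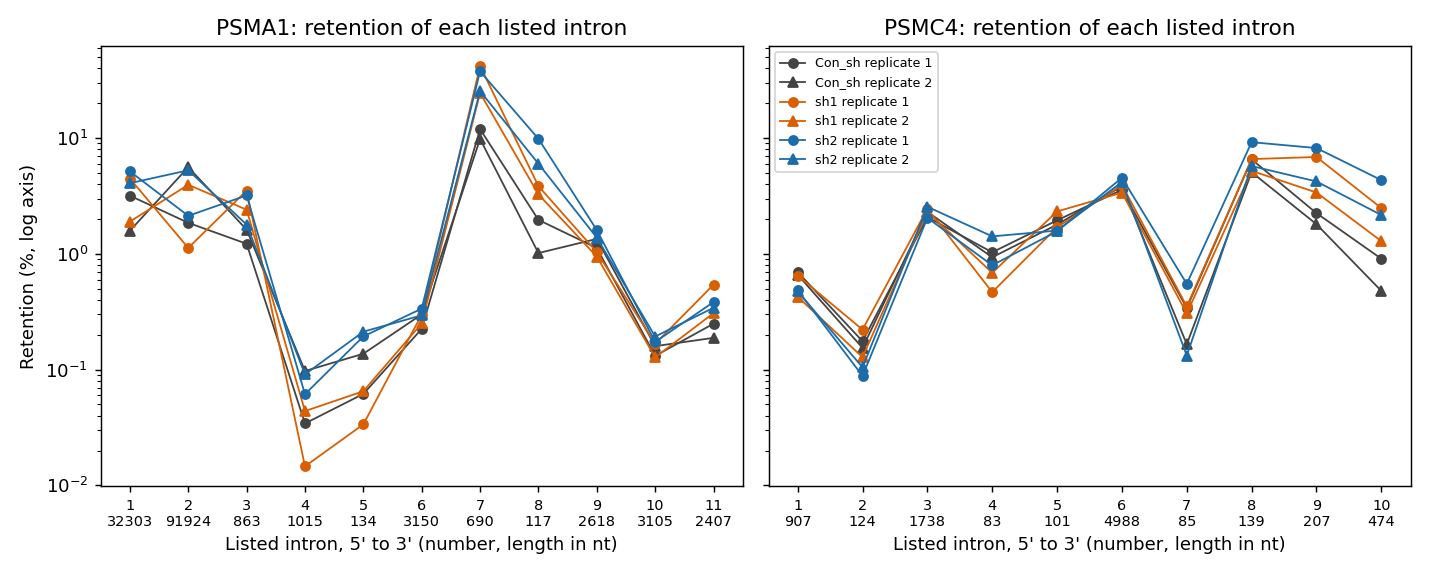
Retention in percent (log axis) of each listed intron of PSMA1 and PSMC4 from the 5′ to the 3′ end of the gene (horizontal axis, intron number with its length in nt below), with a line for each library. The knockdown libraries stand above both controls at introns 7 and 8 of PSMA1 and at introns 9 and 10 of PSMC4. They also do so at an uncalled PSMA1 intron that begins at the nearer start site.

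No other proteasome intron passed the test over both shRNAs. The next lowest p belonged to the first intron of PSMD12, a scaffold subunit of the regulatory particle, which spans 8833 nt (chr17:67357579-67366411). It was retained at 0% and 0.127% with Con_sh, 0.232% and 0.264% with sh1, and 0.358% and 0.382% with sh2, from 0 and 7, 11 and 14, and 14 and 18 boundary reads. The log2 difference was 2.01 (SE 0.596, edgeR adjusted p = 0.159), and the call was gained without Con_sh replicate 2 (adjusted p = 0.0448), which leaves the control at 0 boundary reads. The same held for sh2 alone (0.121 with all libraries, 0.0323 without that one), which was also called with the replicate block (0.0457). After it came introns of the alpha ring gene PSMA6 (1744 nt, log2 1.64, edgeR adjusted p = 0.519), the catalytic subunit gene PSMB5 (5538 nt, 0.98, 0.688) and the ATPase gene PSMC6 (241 nt, 1.93, 0.694). The negative differences with the lowest p were those of PSME4 (1207 nt, -2.12), PSMC5 (100 nt, -1.03) and PSME1 (74 nt, -1.05), with edgeR adjusted p of 0.777, 0.790 and 0.805.

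In 30 of the 382 introns all 4 knockdown libraries stood above both controls, or below in 10. Over all tested introns the shares were 7.28% and 4.11%, so these counts are no result about the proteasome in particular. The median log2 difference of the 382 introns was 0.02 over both shRNAs, -0.09 for sh1 and 0.12 for sh2, beside 0.08, 0.02 and 0.16 over all tested introns. Between the shRNAs edgeR called no proteasome intron (0.0246% of all introns higher and 0.0097% lower in sh1). The unadjusted p was under 0.05 in 17 of them, beside 3.83% of all introns, and no adjusted p was below 0.619.

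**Figure D3:**
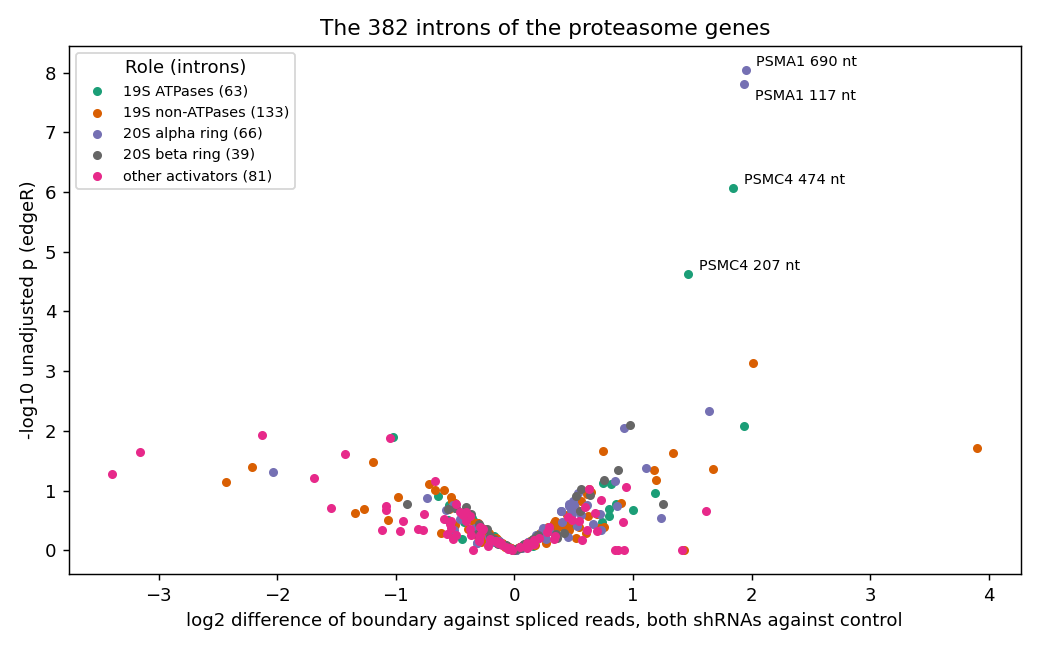
Log2 difference of boundary against spliced reads, both shRNAs against control (horizontal axis), and -log10 of the unadjusted edgeR p (vertical axis) for the 382 introns, coloured by role with the number of introns in brackets. The 4 labelled introns of PSMA1 and PSMC4 stand above all others, at log2 differences of 1.46 to 1.95.

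Most proteasome introns were removed nearly completely in the control. The median retention was 0.829% and 0.823% with Con_sh, 0.857% and 0.713% with sh1, and 1.02% and 0.940% with sh2, beside 1.19% to 1.48% for all tested introns. Mean control retention was above 1% in 181 introns, above 5% in 24 and above 10% in 11. Proteasome introns were deeply read, with a median of 2253 reads a library against 245.5 over all tested introns, and shorter, with a median of 928 nt against 1507 nt. Some 42 introns in 11 of the genes overlap another gene, and the tables are not stated to use strand.

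Of the highest control retentions, several belonged to introns that are hardly used. A 1281-nt PSMD6 intron stood at 86.8% to 100% with 0 to 5 spliced reads a library, and a 4522-nt PSMA4 intron at 89.5% to 100% with 0 to 4. An 8308-nt PSMB5 intron stood at 64.2% to 84.5% with 17 to 49 spliced reads, and a 3272-nt PSME3 intron and a 7320-nt PSMA2 intron at 6.67% to 32.1% and 10.1% to 22.4% with 17 to 70 and 22 to 69. In PSME2 the retained introns were those in full use. Its 435-nt intron was retained at 19.4% and 8.96% with Con_sh, 9.69% and 8.49% with sh1, and 15.8% and 9.71% with sh2, with 1194 and 2270, 2843 and 2625, and 1443 and 2036 spliced reads. Its control libraries overlapped those of both knockdowns, and edgeR gave a log2 difference of -0.37 (adjusted p = 1). Pooled over all introns of PSME2, retention was 9.31% and 4.25% with Con_sh, 4.86% and 3.89% with sh1, and 7.49% and 4.48% with sh2, the highest control mean of the 35 genes (6.78% ± 3.58, SD, n = 2), followed by the beta ring gene PSMB4 with 4.09% ± 0.613. The lowest were PSMB2 (0.156% ± 0.016) and PSMA6 (0.162% ± 0.023).

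For the intron with the most reads in each gene, control retention ran from 0 to 0.013% in PSMB7 (1415 nt) to 14.0% and 6.10% in PSME2 (311 nt). None of these 35 introns was called. PSMD7, whose protein pairs with the deubiquitinase PSMD14, came closest on the positive side after PSMD12 and PSMC6. Its first intron, of 3126 nt, was retained at 3.0% and 2.98% with Con_sh, 5.60% and 4.02% with sh1, and 5.27% and 4.89% with sh2. The knockdown libraries all stood above the control, but the log2 difference of 0.74 (SE 0.323) had an edgeR adjusted p of 0.935.

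The amount of spliced RNA was read from the spliced reads summed over each gene's introns that do not overlap, in CPM. In such bulk sums, fewer cells of a type and less RNA per cell cannot be told apart. Per intron, the control mean was highest for PSMA7 (76.4 CPM ± 5.88), PSMB2 (74.6 ± 6.85) and PSMB1 (71.7 ± 0.542), which all lie within the SD of PSMA7 (n = 2 each). PSMA4 (66.4 ± 5.75) and PSMA2 (63.2 ± 8.31) followed within a spread that reaches those levels. The lowest were PSME4 (4.39 ± 0.713) and PSME1 (7.46 ± 1.96). By role the medians were 46.6 for the alpha ring, 47.3 for the beta ring, 27.7 for the ATPases, 25.4 for the other regulatory subunits and 11.5 for the activators, beside 1.28 over all genes with a sum that was tested. The core particle genes thus stood above the activators except PSME3, at 35.3 CPM ± 2.62.

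**Figure D4:**
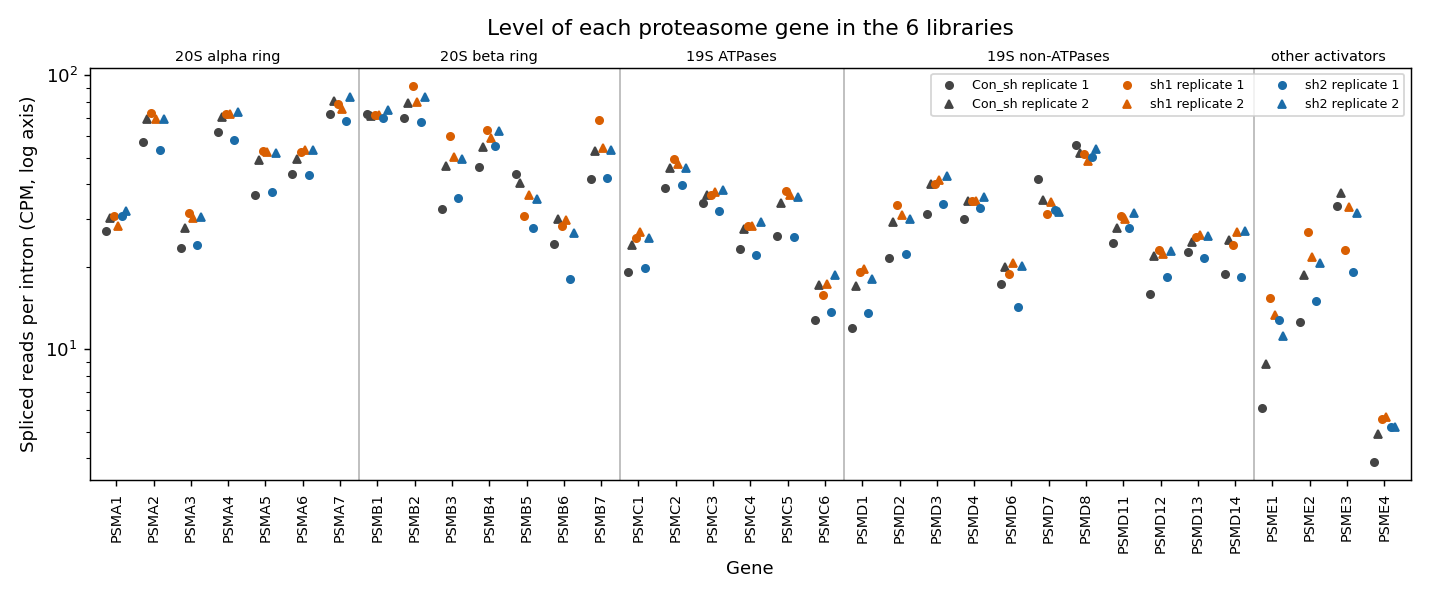
Spliced reads per intron in CPM (log axis) of the 35 genes, grouped by role, with colours for the groups, circles for replicate 1 and triangles for replicate 2. Levels run from 4.39 for PSME4 to 76.4 for PSMA7 as control means, and for most genes the groups overlap.

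In gene sums, edgeR's quasi-likelihood test called none of the 35 genes in any of the comparisons. It called 0.0% of all 17601 genes higher and 0.0% lower in each comparison, so this count says nothing particular about the proteasome. At an unadjusted p under 0.05 it counted PSME1 and PSMB5 over both shRNAs (8.26% of all genes), PSME1 and PSME2 for sh1 (6.7%), PSME1 for sh2 (8.33%) and none for sh1 against sh2 (5.35%). DESeq2 called PSME1 alone, higher over both shRNAs (0.866% of all genes higher and 0.503% lower) and for sh1 (0.591% and 0.209%), and no proteasome gene for sh2 (0.792% and 0.482%) or between the shRNAs (0.229% and 0.193%).

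PSME1, which encodes the alpha subunit of the interferon-induced cap, had sums of 54.7 and 79.6 CPM with Con_sh, 138 and 120 with sh1, and 115 and 101 with sh2. All knockdown libraries stood above both controls, sh1 highest. The log2 fold change over both shRNAs was 0.81 (SE 0.190, edgeR unadjusted p = 0.0040, adjusted p = 0.57), and DESeq2 gave 0.80 with an adjusted p of 0.0251. For sh1 it was 0.94 (edgeR adjusted p = 0.715, DESeq2 adjusted p = 0.0302) and for sh2 0.69 (0.57 and 0.177).

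PSME2, the partner subunit of the same cap and a neighbour of PSME1 on chromosome 14, had 113 and 168 CPM with Con_sh, 241 and 196 with sh1, and 135 and 186 with sh2. The sh1 libraries stood above the control and the sh2 libraries overlapped it. The log2 fold change was 0.64 (SE 0.252, edgeR adjusted p = 0.73) for sh1 and 0.19 (SE 0.252, adjusted p = 0.872) for sh2. Within each replicate number sh2 stood above the control. The sh2 value turned negative where 1 library of such a pair was left out, at -0.057 without Con_sh replicate 1 and -0.063 without sh2 replicate 2.

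The window from 250 bases before to 30 bases after the start of these genes was read from a RefSeq table (GRCh38.p14), beside those of the genes with called introns. For 30 of the 35 genes the table held a window. They are shown because PSME1 and PSME2 had the highest fold changes for sh1 among the 35 genes, and the PSMA1 window holds the start from which nearly all first-intron reads came. Capitals mark matches, on either strand, to TGACNNNGC, the core of the antioxidant response element read by NFE2L1 and NFE2L2, and to GAAA followed by any 2 bases and GAAA, the core of the interferon-stimulated response element.
PSME1 (chr14:24135944-24136223, plus strand): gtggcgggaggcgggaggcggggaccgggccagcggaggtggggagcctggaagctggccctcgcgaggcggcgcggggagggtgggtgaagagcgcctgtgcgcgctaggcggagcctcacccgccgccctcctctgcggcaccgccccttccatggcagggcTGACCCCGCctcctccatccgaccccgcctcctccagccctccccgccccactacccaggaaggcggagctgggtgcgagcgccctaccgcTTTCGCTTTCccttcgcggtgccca
PSME2 (chr14:24146581-24146860, minus strand): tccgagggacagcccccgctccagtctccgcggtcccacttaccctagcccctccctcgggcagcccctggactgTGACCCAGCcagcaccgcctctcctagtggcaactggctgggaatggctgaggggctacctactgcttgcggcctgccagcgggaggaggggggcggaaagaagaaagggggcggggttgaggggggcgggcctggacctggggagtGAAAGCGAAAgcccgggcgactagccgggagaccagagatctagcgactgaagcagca
PSMA1 (chr11:14520357-14520636, minus strand): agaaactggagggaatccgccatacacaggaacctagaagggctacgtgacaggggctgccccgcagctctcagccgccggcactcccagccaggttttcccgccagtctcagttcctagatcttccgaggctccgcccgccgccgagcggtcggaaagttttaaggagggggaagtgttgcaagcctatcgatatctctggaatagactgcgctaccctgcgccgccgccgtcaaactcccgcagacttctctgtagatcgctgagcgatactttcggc
PSMC4 (chr19:39970915-39971194, plus strand): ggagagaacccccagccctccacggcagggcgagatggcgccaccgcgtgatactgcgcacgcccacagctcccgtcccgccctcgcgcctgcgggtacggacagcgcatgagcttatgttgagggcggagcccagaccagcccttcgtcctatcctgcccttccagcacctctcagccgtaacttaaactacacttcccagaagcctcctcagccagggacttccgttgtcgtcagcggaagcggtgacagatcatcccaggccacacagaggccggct

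Both cap genes hold both motifs in these windows. PSMA4 also has matches to both, and its sum had a log2 fold change of 0.05 over both shRNAs (edgeR adjusted p = 0.942). In PSME1 the match TGACCCCGC begins 86 bases before the start and TTTCGCTTTC, a match on the opposite strand, at base 6 counted from the start. In PSME2 TGACCCAGC begins 175 bases and GAAAGCGAAA 28 bases before it. Of all 35116 windows of this length, 12.4% hold TGACNNNGC and 3.39% hold the interferon-stimulated core. Of the 36 windows of the 30 proteasome genes that have any, 8 and 4 do. The windows of PSMA1 and PSMC4 hold neither. These matches describe letters only and draw on no measurement of binding.

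PSMB5, which encodes the catalytic subunit with chymotrypsin-like activity, had 131 and 122 CPM with Con_sh, 91.9 and 110 with sh1, and 83.1 and 106 with sh2. All knockdown libraries lay below both controls, with a log2 fold change of -0.37 (SE 0.153, edgeR unadjusted p = 0.0467, adjusted p = 0.595) over both shRNAs. PSMD7 lay below as well, at 209 and 175 with Con_sh, 156 and 172 with sh1, and 162 and 158 with sh2. So did PSME3, which encodes a nuclear cap, at 402 and 446, 276 and 395, and 229 and 376. Its replicate 1 was the lower library in every group. The log2 fold changes were -0.25 for PSMD7 and -0.41 for PSME3 (edgeR adjusted p = 0.642 and 0.652).

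Above both controls in all 4 knockdown libraries, beside PSME1, stood PSME4, whose protein caps the core particle as a single chain, and PSMB4 of the beta ring. PSME4 had 179 and 225 CPM with Con_sh, 255 and 260 with sh1, and 239 and 240 with sh2 (log2 0.30, edgeR adjusted p = 0.606). PSMB4 had 277 and 329, 378 and 353, and 331 and 377 (log2 0.25, adjusted p = 0.649). The next lowest p belonged to PSMD11 and PSMD1, scaffolds of the regulatory particle, and to PSMB3 of the beta ring. PSMD11 had 268 and 306 CPM with Con_sh, 337 and 329 with sh1, and 305 and 347 with sh2. PSMB3 had 162 and 232, 302 and 252, and 179 and 248, and PSMD1 had 276 and 392, 441 and 452, and 311 and 414. In each of them the sh1 libraries lay above the control and the sh2 libraries overlapped it, and edgeR adjusted p were 0.685, 0.718 and 0.725 over both shRNAs. Within each replicate number sh2 stood above the control in PSMB3 and PSMD1. Their sh2 fold changes, 0.11 and 0.12, turned negative where 1 library of such a pair was left out (Con_sh replicate 1 or sh2 replicate 2). In all, 3 genes lay above and 3 below, where 9.99% and 9.52% of all genes did, and the other 29 genes overlapped the control.

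The genes with called introns had sums of spliced reads within or near the control range. PSMA1 had 243 and 271 CPM with Con_sh, 276 and 254 with sh1, and 275 and 289 with sh2, and PSMC4 had 233 and 274, 282 and 281, and 222 and 291. Both had a log2 fold change of 0.09 over both shRNAs (SE 0.123 and 0.156, edgeR adjusted p = 0.855 and 0.897). The PSMA1 sum holds 9 introns, since overlapping ones are not counted again.

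Of the 35 genes, 29 had a positive log2 fold change over both shRNAs, 30 for sh1 and 25 for sh2, where 48.8%, 49.4% and 49.8% of all genes did. These comparisons share the control libraries. The medians were small, at 0.12, 0.19 and 0.04, beside -0.01, -0.01 and 0.00 over all genes. All 7 alpha ring genes and all 6 ATPase genes had positive values over both shRNAs, of 0.00 to 0.19 and 0.03 to 0.17, none of which passed the test. Summed over the 35 genes, the libraries stood at 8961 and 10656 CPM with Con_sh, 11247 and 11040 with sh1, and 8921 and 11073 with sh2. The lowest sums were thus replicate 1 of the control and of sh2. In those groups 31 and 33 of the 35 genes were lower in replicate 1 than in replicate 2, with median log2 ratios of -0.25 and -0.34, against 15 genes and 0.01 in sh1. In the control and in sh2 the libraries of a group thus differed by more than the median fold change.

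**Figure D5:**
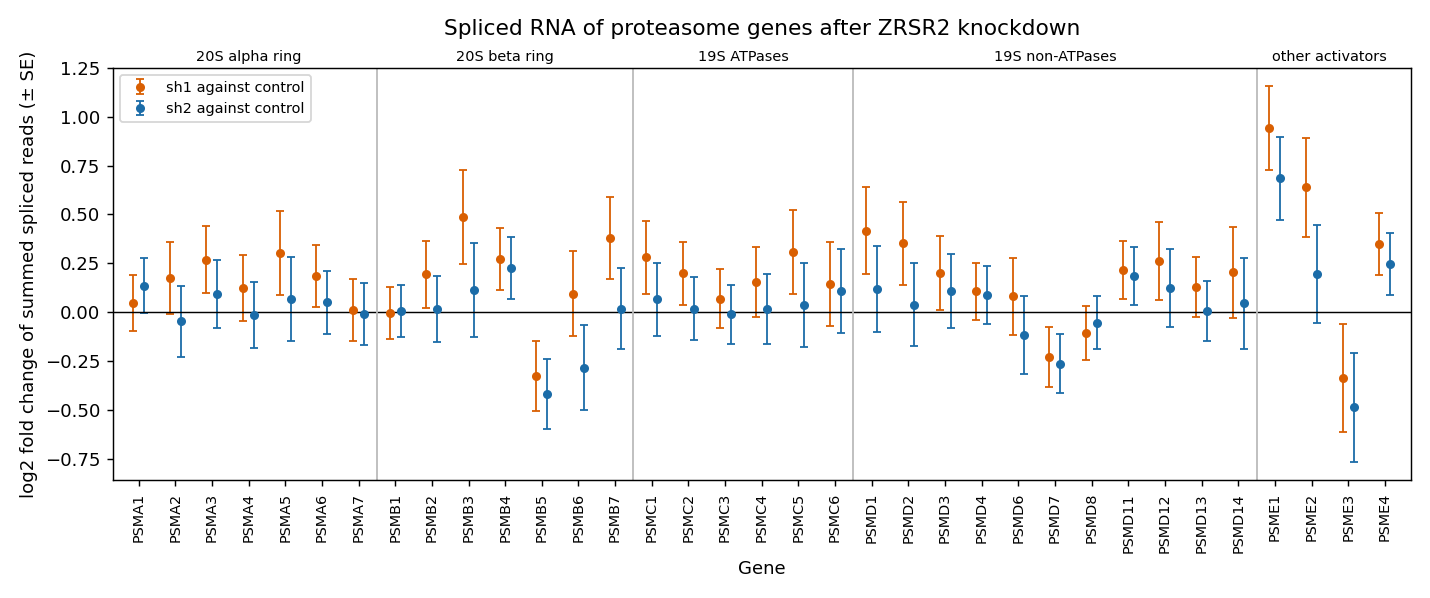
Log2 fold change of summed spliced reads for sh1 and sh2 against control (points, with bars of ± 1 SE from edgeR) for the 35 genes, grouped by role. Most points lie between 0 and 0.5, and PSME1 stands highest at 0.94 and 0.69.

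The wider pathway was read through 42 further genes, of which 38 had a tested sum and 390 introns were tested. edgeR called 0 gene sums in any list and comparison. Over both shRNAs it called 2 of the 390 introns, each more retained, beside 0.33% of all tested introns. USP14 encodes a deubiquitinase bound to the regulatory particle, and its 1069-nt intron was retained at 0.937% and 0.667% with Con_sh, 19.5% and 6.85% with sh1, and 12.3% and 7.01% with sh2 (log2 3.88, SE 0.406, edgeR adjusted p = 1.24e-17). UFD1 encodes a partner of the p97 segregase, and its 2598-nt intron stood at 1.68% and 2.02%, 30.0% and 15.3%, and 32.8% and 19.96% (log2 4.05, SE 0.319, adjusted p = 2.36e-32). For either shRNA alone, the lists that hold these genes had 1 called intron each as well. No intron was called over both shRNAs among the immune and tissue-specific subunits (18 introns), assembly chaperones (59), shuttle factors (49), controllers of proteasome gene expression (25) or ubiquitin genes (34).

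An unadjusted edgeR p under 0.05 over both shRNAs came from 8.26% of all genes. Among gene sums of the pathway it came from 1 of 4 immune and tissue-specific subunits, 1 of 9 assembly chaperones and none of the other lists. The first was PSMB9, an interferon-induced catalytic subunit, with 7.17 and 10.2 CPM with Con_sh, 16.5 and 17.1 with sh1, and 26.4 and 17.3 with sh2. Its libraries did not overlap the control, with a log2 fold change of 1.14 (SE 0.256, edgeR adjusted p = 0.57, DESeq2 adjusted p = 0.00746). PSMB10 stood at 60.0 and 61.5, 79.1 and 67.0, and 61.5 and 66.6 CPM (log2 0.17, edgeR adjusted p = 0.749), so 1 sh2 library lay within the control range. PSMB8 of the same list overlapped the control. It stood at 29.5 and 27.5, 20.1 and 30.8, and 26.1 and 31.9 CPM (log2 -0.07, edgeR adjusted p = 0.949). The chaperone gene PAAF1 had 94.1 and 63.3, 45.6 and 52.5, and 60.8 and 56.5 CPM (log2 -0.55, edgeR adjusted p = 0.57), and PSMG4, another chaperone gene, had a log2 fold change of -0.45 (adjusted p = 0.602). In the other lists, the named genes of lowest p had log2 fold changes from -0.39 in NGLY1 to 0.33 in NFE2L2, with UBE3C, ECPAS, RAD23B, UBQLN4, FAF2, UFD1 and RPS27A between them. NFE2L1, the transcription factor that raises proteasome genes when the protease is impaired, had 97.6 and 84.9 CPM with Con_sh, 97.4 and 89.8 with sh1, and 88.6 and 90.5 with sh2 (log2 0.01, edgeR adjusted p = 0.994).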

How the data were processed

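Polyadenylated RNA of K562 cells was sequenced in 6 libraries, 2 each for Con_sh, sh1 and sh2, and the replicate number is the one the titles give after Exp. The titles do not say what libraries of 1 number share. The deviations of same-numbered libraries were correlated only weakly over introns (0.051 to 0.106) and more over gene sums (0.278 to 0.444). Results are therefore also given with this number as a replicate block where it changes a call. The authors deposited 1 intron table per library with counts of reads at either boundary and of spliced reads, per the file headers, not normalised. The deposited tables also hold a covered fraction of each intron and a retention in percent, which was recomputed from the counts with a largest deviation of 2.84e-14. The submitters' processing notes name hg19, but 95.6% of introns lay inside a gene of RefSeq's GRCh38 table, whose names were used. For 5 members the strand came from the introns. Aligner, counter and annotation are not given in the sources used here.

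Boundary and spliced reads of introns with at least 20 reads on average were tested in edgeR 4.0.16 (quasi-likelihood, library as a factor, 134078 introns, Benjamini-Hochberg at 0.05, all 6 libraries sharing 1 spread). Gene sums added the spliced reads of introns without overlap, leaving out 2854 introns whose counts repeat those of another gene, and were scaled with TMM and tested in edgeR and, as an alternative, DESeq2 1.42.0. CPM are relative to these sums. The steps were tested on simulated data.

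The members and gene lists were chosen with earlier results of these data known. Chosen for description were introns called in any comparison and those with the 10 lowest p over both shRNAs. So were the 10 highest control retentions, the most-read intron of each gene, and the genes of lowest p. Not all of these are given with their values. Alternatives were other filters, boundary counts, covered fraction, sums, scalings, the replicate block, 2 groups at a time and leaving out each library; counting only 1 boundary was added after seeing the data. No genome sequence was used here, so intron classes were not assigned. 1 gene of the further lists is not reported here.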

Additional observations from a re-analysis of the deposited data

How the results depend on the processing

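Over both shRNAs the 4 calls of proteasome introns fell to 0 when the smaller boundary count was doubled, to 2 among the 225 introns with a mean covered fraction of at least 0.95, and to 2 with only the 3′ boundary. For sh1 the count went from 1 to 0 under each of these 3 settings. For sh2 it went from 4 to 0 with the smaller boundary doubled, 1 at that coverage and 2 with only the 5′ boundary. Leaving out 1 library gave 2 to 4 calls over both shRNAs, 0 to 3 for sh1 and 1 to 4 for sh2. At a minimum of 50 reads PSMC4 intron 9 was lost over both shRNAs (edgeR adjusted p = 0.0531). For gene sums DESeq2 gave 1 call over both shRNAs and 1 for sh1 where edgeR gave 0. With the smaller boundary doubled, or only the 3′ boundary, the 863-nt PSMA1 intron turned to -0.47 and -0.47 over both shRNAs, -0.029 and -0.044 for sh1, and -0.92 and -0.90 for sh2. For sh2 the fold changes of 3 genes turned negative without Con_sh replicate 1 or sh2 replicate 2, each of which breaks a same-numbered pair, and leaving out 1 library gave -0.063 to 0.51 for PSME2, -0.15 to 0.40 for PSMB3 and -0.11 to 0.40 for PSMD1. The cause of these shifts was not tested. Of the 41 alternative values for counts of calls above 0, 25 stayed within 1.5 times that count. The 69 for counts of 0 have little room to move. Introns near the minimum of 20 reads hold few boundary reads, which limits what can be called there. Among proteasome introns the lowest mean was 42.8 reads a library.

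With a replicate block, the calls for sh1 rose from 1 to 4 and those between the shRNAs from 0 to 1 (the 117-nt PSMA1 intron, -1.19, edgeR adjusted p = 0.0387). For sh2 they went from 4 to 5 with the first intron of PSMD12. The block changed no other call of a proteasome intron or gene sum.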
